A study of Drosophila melanogaster with 3 samples.

Results

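The genes described here are tango (tgo) and the genes of 4 tissue-specific partners of its protein, single-minded (sim), trachealess (trh), spineless (ss) and dysfusion (dysf). They were chosen by gene name in the Ensembl annotation of BDGP release 6, and make 5 of its 13968 protein-coding genes. Every anti-GFP peak summit in each gene's body or within 10 kb of it, a stretch called its territory here, was taken from the deposited peak lists. The territories hold 10 regions shared between replicates, called core regions, of 3463 in the genome.

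Chromatin immunoprecipitation sequencing maps where a protein sits on DNA. Here it was made with an anti-GFP antibody on whole embryos of a tgo-GFP strain of Drosophila melanogaster, which express a tgo-eGFP fusion from an insertion aimed at tgo, aged 0 to 24 h. The series is 1 group of 3 biological replicates, with no untagged or treated arm, so it gives levels and their spread and no contrast. Whole embryos of this age pool all tissues and stages, and a place bound in few cells cannot be told apart from a place bound weakly in many.

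Tango is the fly counterpart of the mammalian protein ARNT and is present in most cells. Like other proteins of the bHLH-PAS family it binds DNA as a pair, and its partner carries the tissue identity: Single-minded directs the midline of the central nervous system, Trachealess the tracheal system and salivary ducts, Spineless (the counterpart of the aryl hydrocarbon receptor) antennal and leg identity, and Dysfusion the tracheal cells that join branches. Tango with Single-minded or Trachealess recognises ACGTG, the CNS midline element, while GCGTG is known for the pair with Spineless and TCGTG for the pair with Dysfusion.

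The sequences at the summits of sim and trh are shown first, because they include both summit windows of core regions that hold one of these sites. Each is the plus strand of dm6, 5′ to 3′, 100 bp around the summit of a core region unless its name says otherwise. Capitals mark any of these 3 sites on either strand, so a site of the minus strand appears as its reverse complement. The stretch at the Cdc5 and CG1233 promoters was shortened to 86 bp to keep to sequence between the genes. The sequence next to the trh start site is 60 bp and lies away from a summit. It is included for its 3 ACGTG sites.
sim intron, downstream of the sim-RC start, chr3R:13064527-13064626: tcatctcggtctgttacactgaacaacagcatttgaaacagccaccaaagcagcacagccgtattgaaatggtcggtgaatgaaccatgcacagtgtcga
sim intron, upstream of the sim-RA start, chr3R:13068187-13068286: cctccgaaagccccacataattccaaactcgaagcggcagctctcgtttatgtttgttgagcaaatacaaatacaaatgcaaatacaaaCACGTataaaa
Cdc5 and CG1233 promoters beside trh, chr3L:361384-361469: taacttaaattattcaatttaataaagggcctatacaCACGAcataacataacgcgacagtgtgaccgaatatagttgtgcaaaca
trh inner promoter, summit, chr3L:377642-377741: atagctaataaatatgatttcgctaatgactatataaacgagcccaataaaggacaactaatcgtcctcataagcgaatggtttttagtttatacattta
trh inner promoter, next to the start site, chr3L:377317-377376: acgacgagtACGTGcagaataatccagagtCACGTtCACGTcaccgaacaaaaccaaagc
trh region of replicate 3 alone, chr3L:378140-378239: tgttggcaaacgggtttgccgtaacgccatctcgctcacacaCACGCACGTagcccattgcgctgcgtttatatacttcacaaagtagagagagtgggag

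The sequences at dysf follow, because that gene had the most core regions of the 5. None of these windows holds any of the 3 sites. The core region at tgo overlaps a UTR, and its sequence is not shown.
dysf, past the 3′ end, chr3R:26072602-26072701: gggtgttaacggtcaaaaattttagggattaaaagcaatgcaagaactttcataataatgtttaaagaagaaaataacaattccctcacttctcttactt
dysf intron, chr3R:26081788-26081887: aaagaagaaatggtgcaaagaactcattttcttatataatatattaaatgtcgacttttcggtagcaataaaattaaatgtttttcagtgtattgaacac
dysf promoter, chr3R:26099042-26099141: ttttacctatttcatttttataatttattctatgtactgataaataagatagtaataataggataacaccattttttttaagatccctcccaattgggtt
Cipc promoter, distal, chr3R:26105993-26106092: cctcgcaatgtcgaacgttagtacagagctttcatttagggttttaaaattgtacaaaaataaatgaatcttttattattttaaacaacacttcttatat
Cipc promoter, proximal, chr3R:26106718-26106817: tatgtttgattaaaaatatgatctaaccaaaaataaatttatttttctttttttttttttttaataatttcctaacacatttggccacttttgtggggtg

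Of the 5 genes, 4 had a core region in the territory, where 54.9% of all protein-coding genes did. The territories of sim, trh, ss and dysf, from 40.37 to 49.257 kb, were longer than the median of 22.164 kb over all genes. Among the 693 genes with a territory at least as long as that of ss, 34.8% had 0. A core region is a place where summits no more than 150 bp apart came from at least 2 of the 3 thresholded lists. The genes differed widely. There were 5 core regions at dysf, 2 each at sim and trh, 1 at tgo and 0 at ss. Territories with 5 or more made up 1.63% of all, and 10.6% of those at least as long as the dysf territory. Territories with 2 or more made up 26.3%, and 45.1% of genes had 0. The share of genes with a core region in the body itself was 3 of 5 (sim, trh and dysf), beside 9.63% of all genes. The same 3 genes had a core region in the body with 2 kb upstream, where 23.1% of all genes did. Their bodies are long, at 20.37 kb for sim, 26.11 kb for trh and 22.12 kb for dysf. The median over all genes is 22.164 kb for a whole territory, flanks included. Both shares over all genes thus come mostly from much shorter bodies, and no share matched for body length was made. A region of all 3 lists stood in the territory of 2 of the 5, trh and dysf, beside 44.4% of all genes, and 3 or more core regions in that of 1, beside 10.5%.

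**Figure D1:**
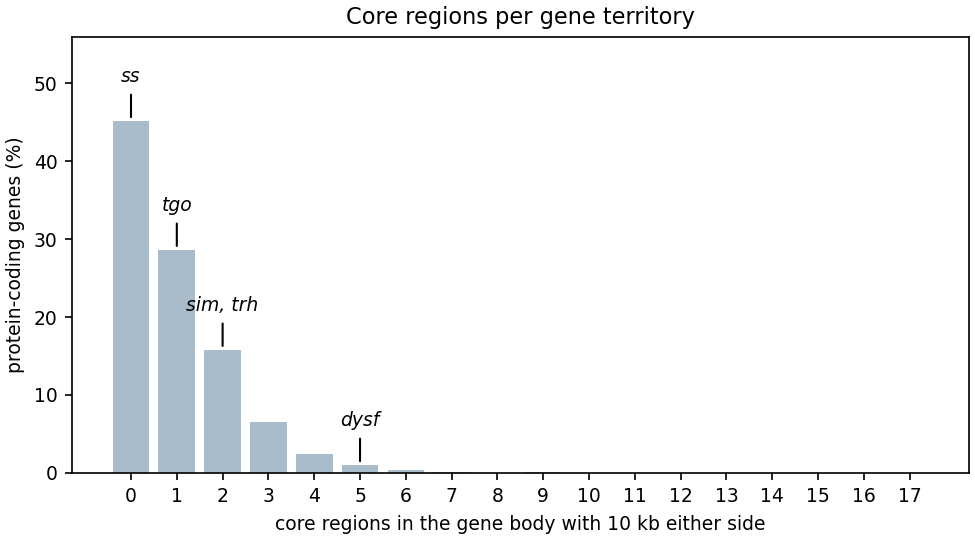
Bars show the percentage of the 13968 protein-coding genes with each number of core regions in the gene body with 10 kb either side, and the 5 genes are written above their own number. The gene ss stands at 0, tgo at 1, sim and trh at 2 and dysf at 5.

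A thresholded summit stood in the territory of 3, 4 and 4 of the 5 genes in replicates 1, 2 and 3, beside 56.2%, 61.6% and 50.2% of all genes. In the same order the 5 territories held 8, 12 and 10 thresholded summits, or 10 ± 2 (SD, n = 3). Per 100 kb this was 4.97 ± 0.99, against 2.76 ± 0.64 over the genome, and the ratio of the 2 densities was 1.52, 1.72 and 2.26 in the 3 replicates. All 3 ratios were above 1, and so were those of all ranked candidates, passing or not, at 1.28, 1.31 and 1.59. Of the candidates in the territories 12.3%, 8.28% and 13.0% passed, against 10.4%, 6.27% and 9.13% over the genome. The 10 core regions lay in 201.107 kb, or 4.97 per 100 kb (95% exact Poisson interval 2.38 to 9.14, counting error only), 1.98 times the genome density of 2.52. With only the peaks above their list's median signal the ratio was 0.752. It then rested on 2 core regions and no interval was made for it. Whether the territories were sparser than the genome at that setting cannot be told. Territories of all protein-coding genes, with overlaps counted repeatedly, held 3.66 core regions per 100 kb, 1.45 times the genome density. With dysf at 11.9 core regions per 100 kb (3.85 to 27.7) and the other genes with a region between 4.30 and 4.95, dysf supplied 5 of the 10 regions.

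The signal of a peak is the authors' enrichment measure, and it is given here as its percentile among all ranked candidates of the same replicate. The ranked lists differ in length, with 35134, 75958 and 33491 candidates in replicates 1, 2 and 3, of which 10.4%, 6.27% and 9.13% passed. Percentiles of different replicates are therefore not on the same scale, and their SD includes this difference. Replicate 2, with the longest list, gave the highest percentile at every core region. The global IDR, the irreproducible discovery rate, scores how well a peak recurs between paired rankings, and the thresholded lists end at 0.01. Over the 10 core regions and 3 replicates, 25 of 30 values passed that threshold, at percentiles from 88.0 to 99.2 with a median of 93.9. The 5 that did not pass still had a candidate nearby in the replicate concerned, at percentiles from 85.7 to 96.2 and an IDR from 0.0306 to 0.703. Over the genome, 89.7% of the 1193 core regions found in 2 lists had such a candidate in the remaining replicate, with a median percentile of 87.7. Within the thresholded lists themselves the 10 regions stood low: the median of their mean percentiles was 34.7, against 53.0 for all core regions.

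**Figure D2:**
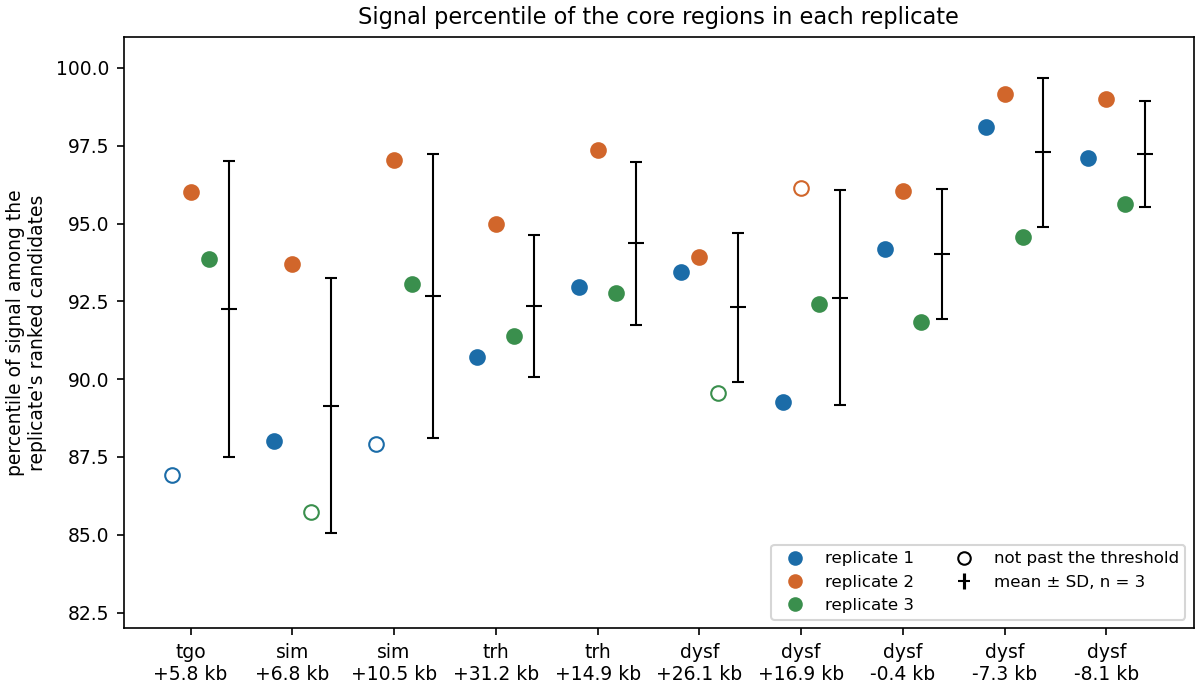
Each point is the signal percentile of a core region among the ranked candidates of 1 replicate, open where the peak did not pass the threshold, with mean ± SD (n = 3) beside it; regions are named by gene and distance from its outermost start site. The pair of regions at -7332 and -8057 bp from the dysf start stands highest, and the region of sim at 6.8 kb lowest.

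**Figure D3:**
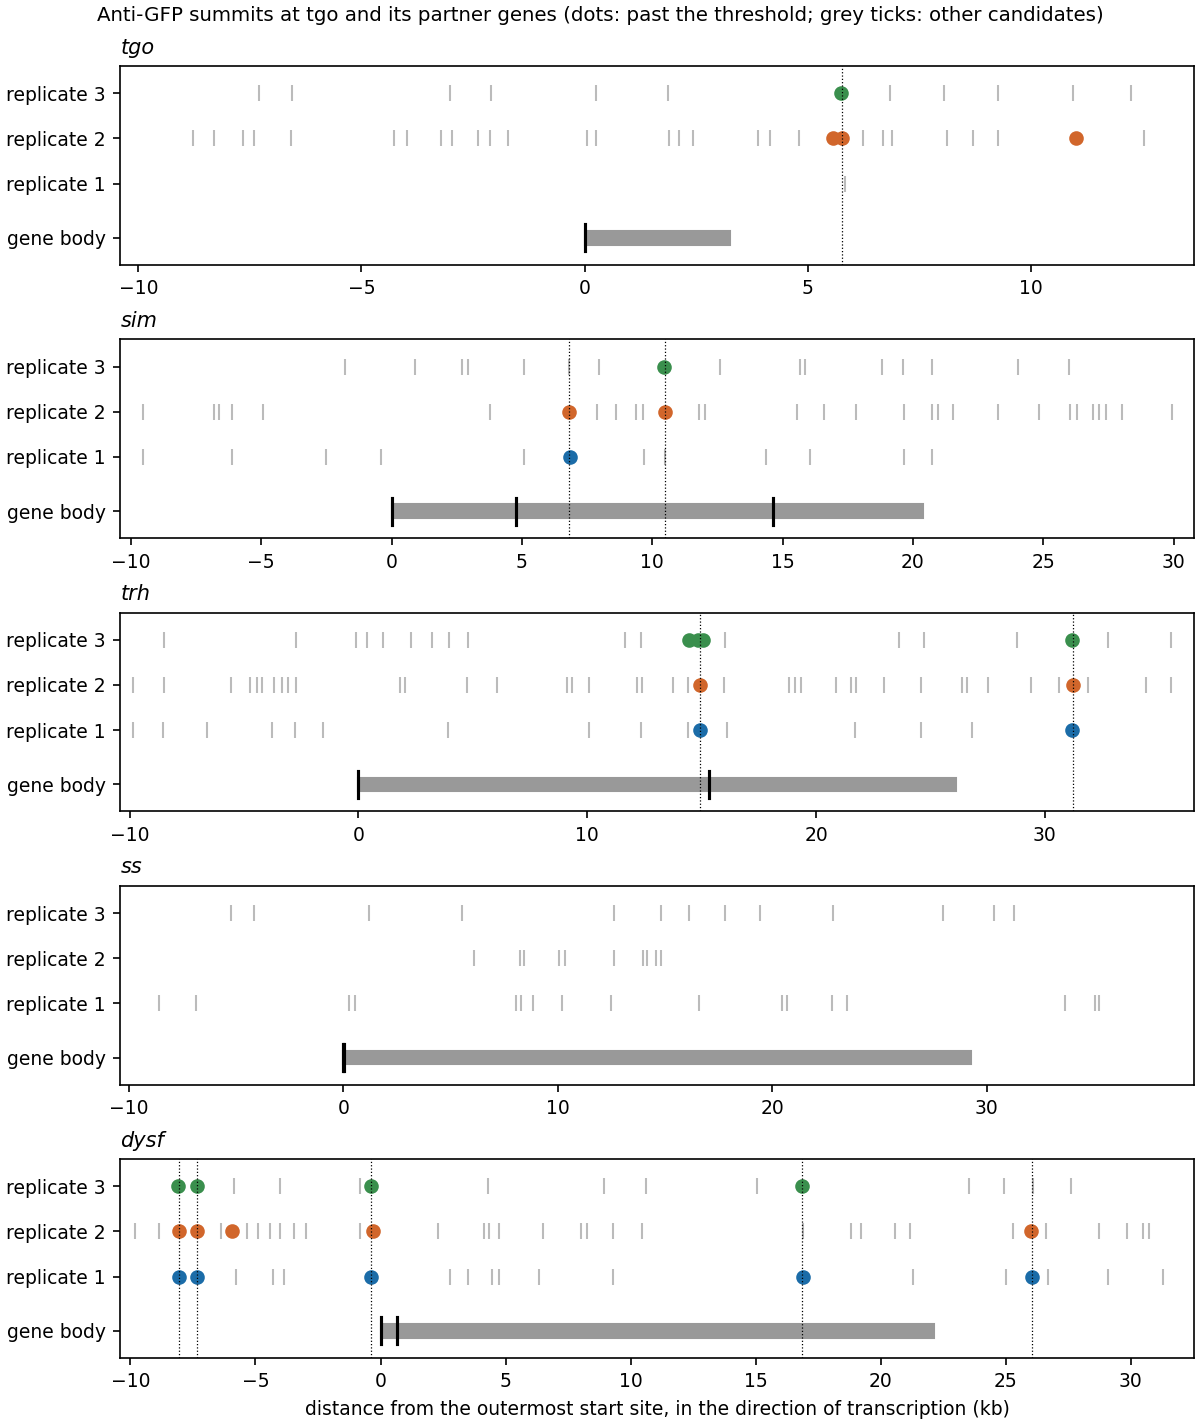
Each panel is 1 gene drawn in its own direction of transcription, with the distance from its outermost start site in kb; black ticks on the grey body are start sites, coloured dots summits past the threshold, grey ticks other ranked candidates, and dotted lines core regions. Dots are absent at ss, and at tgo they all lie past the 3′ end of the gene.

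The gene tgo itself, on 3R from 9016773 to 9020022 on the minus strand, had no passing summit in its body. Replicates 1, 2 and 3 had 0, 5 and 2 ranked candidates there. The best of them lay 250 bp downstream of the start site in replicate 2 (percentile 86.8, IDR 0.279) and at 260 bp in replicate 3 (85.1, IDR 0.0230). Both miss the threshold, so no peak was called at the tgo start in any replicate. The labels do not say where the tagged insertion sits, so signal from the native gene and from the tagged copy cannot be told apart. The single core region of the territory, from 9014076 to 9014415, lay past the 3′ end of tgo, and its summit stood at -24 bp from the nearest Kcmf1 start. Kcmf1 encodes a ubiquitin ligase. The region's percentiles in replicates 1, 2 and 3 were 86.9, 96.0 and 93.8, and its IDR 0.0625, 0.000358 and 0.000302. Replicate 1 fell short, and the mean was 92.3 ± 4.75 (SD, n = 3). Since it rests on replicates 2 and 3, tgo has 0 core regions without either. Replicate 2 added a peak from 9008838 to 9009177 in a coding exon of CG11983 (percentile 92.6, IDR 0.00982), just inside the threshold, and a second summit 203 bp from the core one.

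Both core regions of sim lay inside the gene, on 3R from 13057755 to 13078124 on the plus strand, and both lay in the first intron of its long transcripts. The region from 13064407 to 13064746 had its summit 2055 bp downstream of the sim-RC start. Its percentiles were 88.0, 93.7 and 85.7 in replicates 1, 2 and 3, with an IDR of 0.00760, 0.00853 and 0.362. It passed narrowly in replicates 1 and 2, and its mean of 89.1 ± 4.10 was the lowest of the 10. The region from 13068067 to 13068406 had its summit at -4162 bp from the start of sim-RA, the transcript with the innermost start. Its percentiles were 87.9, 97.0 and 93.1, and its IDR 0.703, 0.000144 and 0.000860. Replicates 2 and 3 passed clearly here and replicate 1 did not. It was also the only summit window of the 10 with ACGTG, 41 bp from the summit. Both regions need replicate 2, and without it sim has 0.

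At trh, on 3L from 366524 to 392633 on the minus strand, the 2 core regions were in all 3 lists, as 65.6% of core regions were. The region from 377522 to 377861 lay at -376 bp from the inner start site at 377316, from which 5 of the 7 annotated transcripts begin, and in the intron of the longer ones. Its percentiles were 93.0, 97.4 and 92.8, and its IDR 0.000262, 7.11e-05 and 0.000838. Every replicate passed, with a mean of 94.4 ± 2.61 (SD, n = 3). Replicate 3 placed 2 summits there, and the summits of the region spread over 203 bp, the most of the 10. Within 500 bp of the summit there were 6 ACGTG positions, although the nearest was 330 bp from the summit. As many or more were at 0.462% of all core regions, the smallest such share over the 3 sites and 10 regions. It is thus the extreme of many values, and the next was 1.39%, for 6 GCGTG positions at the proximal Cipc region. ACGTG was within 500 bp of the summit at 6 of the 10 regions, beside 60.7% of all core regions. A further peak of replicate 3, from 378015 to 378364, lay at -874 bp from the same start (IDR 0.00548), where replicates 1 and 2 had candidates at percentiles 89.7 and 91.0 that did not pass. The summit window of this peak, which is no core region, held both ACGTG and GCGTG.

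The second trh territory region, from 361250 to 361589, was not at trh: the summit stood at -37 bp from the Cdc5 start site. Cdc5 encodes a splicing factor and shares this promoter with CG1233. The outermost trh start was 31213 bp away. The region's percentiles of 90.7, 95.0 and 91.4 and IDR of 0.00341, 0.00227 and 0.00228 passed in each replicate (mean 92.4 ± 2.29). This summit window held TCGTG, 3 bp from the summit.

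The gene ss, on 3R from 16374434 to 16403690 on the minus strand, had 0 thresholded summits in every replicate, although its territory was the longest of the 5 at 49.257 kb. At a floor of 3 counts, a count of 0 allows up to 6.09 core regions per 100 kb, and the upper limit of the 95% exact Poisson interval used for the other densities is 7.49. Both lie above the 4.95 of sim, so a difference from sim was not detectable. Among the 693 genes with a territory at least as long, 34.8% had 0. Candidates were present, 17, 10 and 13 in replicates 1, 2 and 3, of which 0 passed. The highest percentile was 86.3 in replicate 1 (IDR 0.516), 69.8 in replicate 2 (IDR 0.474) and 60.5 in replicate 3 (IDR 0.722). Of 34 candidate places, 1 (2.94%) recurred in all 3 lists, beside 9.98% of candidate places over the genome. That place was 12495 bp downstream of the start, at percentiles 63.1, 26.6 and 60.5. The same share was 3.23% at tgo, 9.30% at sim, 15.1% at trh and 17.4% at dysf. The authors' conservative list of the whole series, which is not made per replicate, does hold 1 peak in the territory, from 16368268 to 16368657, with its summit between js and CG10317. That summit, at 16368463, lies at the replicate 1 candidate of percentile 86.3, whose summit is at 16368460.

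**Figure D4:**
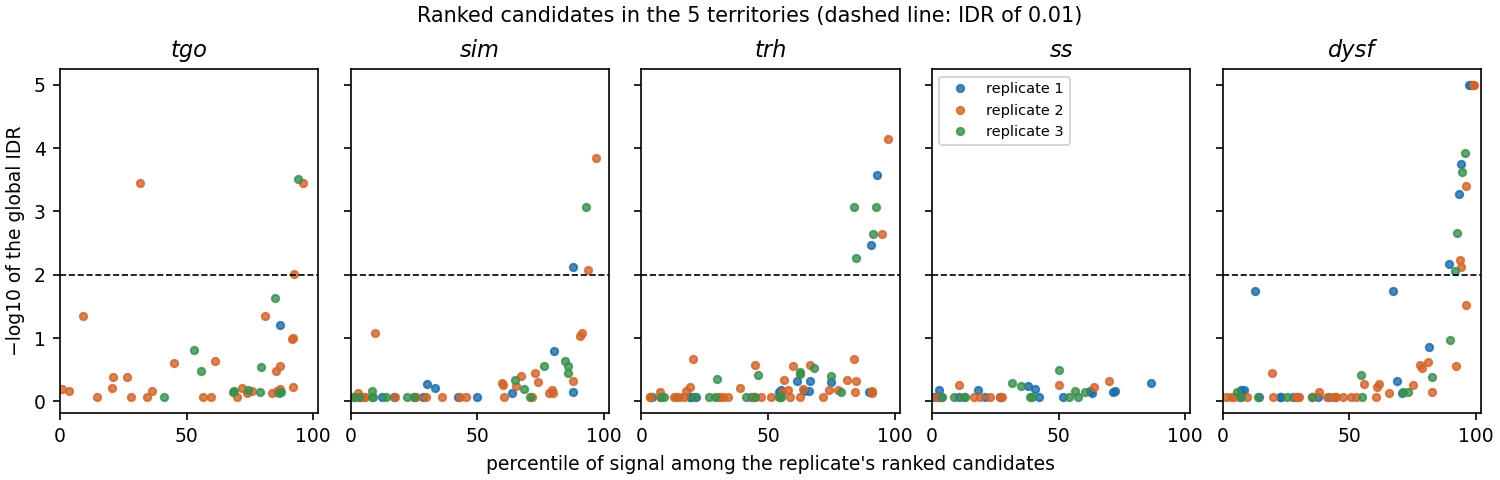
Each point is a ranked candidate in the territory of 1 gene, with its signal percentile in the replicate on the x axis and the −log10 of its global IDR on the y axis, where the dashed line is an IDR of 0.01. No candidate of ss lies above the line, and the highest points, at the cap of 5, are those of dysf.

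The dysf territory, on 3R with the gene from 26076592 to 26098711 on the minus strand, held both the strongest regions and a region at the gene's own promoter. That promoter region ran from 26098922 to 26099261, with its summit at -381 bp. Its percentiles were 94.2, 96.0 and 91.8, and its IDR 0.000179, 0.000402 and 0.00871. It passed in each replicate, most narrowly in replicate 3, with a mean of 94.0 ± 2.10 (SD, n = 3). The intron region from 26081663 to 26082012 passed in replicates 1 and 3 (IDR 0.00688 and 0.00219). Replicate 2, whose ranked list is the longest, gave it a percentile of 96.2 and an IDR of 0.0306. That was the highest percentile among the values that did not pass. The region past the 3′ end, from 26072482 to 26072821, passed in replicates 1 and 2 (IDR 0.000521 and 0.00747) and not in replicate 3 (IDR 0.107). The start nearest to it was that of CG14551, with the summit at -9641 bp. Replicate 2 alone added a peak from 26104468 to 26104807, at -5927 bp from the dysf start (percentile 93.9, IDR 0.00588). Replicates 1 and 3 had candidates there at percentiles 81.4 and 73.0 that did not pass (IDR 0.137 and 0.710), and the conservative list held a peak at this place.

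The strongest pair of the 10 lay upstream of dysf but in the promoter of Cipc, the fly counterpart of a mammalian inhibitor of the CLOCK protein. The distal region, from 26105976 to 26106163, was at -825 bp from the Cipc start and -7332 bp from that of dysf. Its percentiles were 98.1, 99.2 and 94.6 (mean 97.3 ± 2.40, SD, n = 3). The proximal region, from 26106692 to 26106894, was at -100 bp from the Cipc start, with percentiles of 97.1, 99.0 and 95.6 (97.2 ± 1.69). In replicates 1 and 2 both reached an IDR of 1e-05, the lowest that the lists give. These were the only 2 regions left when each list was restricted to the peaks above its median signal, so dysf was then the only gene of the 5 with a core region, in a promoter that is not its own.

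Across the 10 core regions, 6 lay in promoters, beside 47.9% of all core regions, 3 in introns and 1 between genes. The promoter share depended on the territory and the support asked for: it was 25% in the bodies alone, 40% with 2 kb upstream and 100% for regions in all 3 lists. These shares rest on 4, 5 and 5 regions. A body alone leaves out the sequence upstream of its outermost start by definition. No share over all core regions was made for these settings, so they are not traits of these genes. Of the 6 promoters, 2 belonged to a gene of the set (trh and dysf) and 4 to a neighbour (Kcmf1, Cdc5 with CG1233, and Cipc at 2 places). The start nearest to the summit was that of a set gene for 5 of the 10. Of the 10 regions, 5 were in all 3 lists, against 65.6% of all core regions. The authors' conservative list held a peak at each of the 10.

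Sites known for Tango pairs were at 2 of the 10 summits, where 15.9% of all core regions had any of the 3. ACGTG was at 1 summit (5.52% of all), TCGTG at 1 (6.81%) and GCGTG at 0 (5.4%). In the 20 flanking windows 500 bp away, ACGTG was in 4, TCGTG in 4 and GCGTG in 2, beside 9.46%, 11.8% and 13.8% of such windows over all core regions. Over 1000 bp around the summits, where a palindrome counts at both positions, ACGTG averaged 1.5 ± 2.01 per region (SD over 10 regions; 1.13 for all core regions), GCGTG 2.4 ± 2.07 (1.51) and TCGTG 1.6 ± 1.17 (1.19). These means are a description, and their differences were not tested. Of other short sequences, GATAA was at 1 summit (24.3% of all) and in 3 flanking windows (17.8%), and TATCGA at 0 summits (5.05%) and in 0 flanking windows (3.54%). CACTG was at 4, those of tgo, the sim-RC intron, Cdc5 and the dysf intron, beside 17% of all core regions, and in 4 flanking windows (16.8%). It was picked after the summit sequences had been read, so its count supports nothing by itself.

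The summits were poor in G and C. The 100 bp at the summit averaged 32.9% GC ± 9.59 (SD, n = 10), with a range from 22% at the proximal Cipc region to 50%, against 44.8% in the flanking windows. It was lower at the summit in 7 of the 10, and all core regions showed the same dip, at 31.1% and 43.6%.

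**Figure D5:**
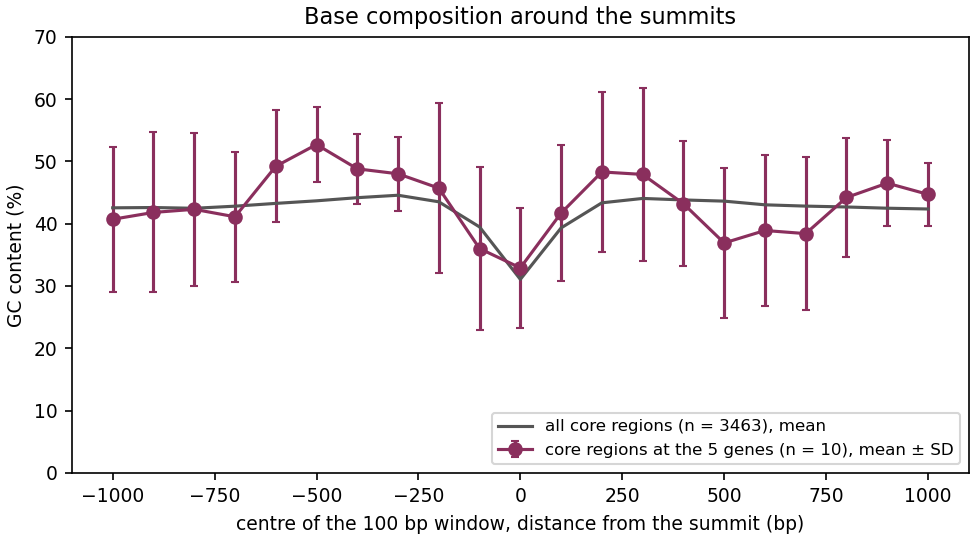
The GC content in % of 100 bp windows is plotted against distance from the summit in bp, as the mean ± SD over the 10 core regions at the 5 genes (points) and as the mean over all 3463 core regions (line). Both fall to their lowest value at the summit, 32.9% and 31.1%.

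Of 6 further bHLH-PAS genes, 5 had a core region in the territory, beside 54.9% of all protein-coding genes. There were 6 at tai, 4 at sima, 2 each at gce and Met, 1 at cyc and 0 at Clk. The tai and sima territories, at 103.434 and 83.488 kb, were far longer than the median of 22.164 kb over all genes. Together the 6 genes had 4.87 core regions per 100 kb, close to the 4.97 of the 5 genes described here. The strongest Met region and the cyc region had Ptp10D and Fibp as nearest genes. Neither vvl nor D, which encode cofactors of Tango pairs, had a core region. Of 3 known targets of such pairs, sli had 3 and Tl and btl had 0. The sli and Tl territories were also long, at 72.624 and 63.363 kb. Together the 3 targets had 1.84 core regions per 100 kb, beside 2.52 over the genome. For both of these short lists the share over all genes is the same 54.9%.

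Genes nearest to the regions with the most similar signal percentiles over the 3 replicates, by Euclidean distance within the thresholded lists, were Hs3st-A (distance 3.11) and noc (4.01) for the trh inner promoter, and ZnT77C (2.75) and Syx4 (2.97) for the distal Cipc region of the dysf territory. The region of noc lay between genes, with its summit at -15640 bp from the noc start, and the others lay in promoters.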

How the data were processed

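Peak lists on dm6 were deposited for each of the 3 replicates: a thresholded list (3617, 4759 and 3027 peaks) and a longer ranked list (35134, 75958 and 33491 candidates). The deposited readme says that each list was made from filtered reads of its replicate together with a control. Aligner, peak caller and read depth: not given in the sources used here. Signal values, as deposited by the authors, have no stated unit and entered only as percentiles within a list. The deposited score is a scaled IDR, from 830 to 1000 in the thresholded lists. The deposited global IDR is a −log10 value, and the deposited summit offset gave each position. Sonicated fragments were 200 to 800 bp, per the labels.

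Summits on 7 arms were grouped by single linkage with a 150 bp limit, and core regions are those in at least 2 lists. A promoter spans 1000 bp before and 200 bp after a protein-coding start. Gene models were Ensembl release 115, and sequence was the NCBI assembly of the same build. Python 3.11.15, numpy 2.4.6, pandas 2.3.3, scipy 1.17.1 and matplotlib 3.10.9 were used. With 1 group there is no test, and values carry SD over replicates or exact Poisson intervals at 95%. The joining of summits and the counting in territories were tested on simulated data, and the site search and GC content on short made-up sequences. Promoter assignment, nearest genes and the matching of candidates were not covered by that test. The named genes are the 5 members, every gene nearest to a thresholded summit in their territories, listed genes of the family and pathway with a core region, and the 2 genes nearest in signal to a member's strongest region in all 3 lists. The members and gene lists were chosen with earlier results of these data known. Besides the planned Tango sites, GATAA and TATCGA were searched, and CACTG was added after the summit sequences had been read.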

Additional observations from a re-analysis of the deposited data

How the results depend on the processing

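The 10 core regions became 5 when all 3 lists were required, 2 with only the peaks of each list that exceed its median signal, 5 in the body with 2 kb upstream, 4 in the body alone and 16 with 20 kb either side. Leaving out a replicate gave 6 to 7. The 4 genes with a core region became 2 with all 3 lists and 1 above the median signal, and 2 to 4 without a replicate. The density ratio of 1.98 became 1.51 with all 3 lists, 0.752 above the median signal and 1.57 in the body alone (1.56 to 1.86 without a replicate). The 0.752 rested on 2 regions and has no interval, so it does not show that the territories were sparser than the genome. The promoter share of 60% became 100% with all 3 lists, 100% above the median signal, 40% in the body with 2 kb upstream and 25% in the body alone (71.4 to 85.7% without a replicate). The share of summits with a Tango site, 20%, became 0% above the median signal, 25% in the body alone and 25% with 20 kb either side (14.3 to 28.6% without a replicate). The 287 candidates became 150 in the body with 2 kb upstream and 140 in the body alone (142 to 222 without a replicate). The count of other listed genes with a core region, 6, ranged from 4 to 9. The cause of these shifts was not tested. No paired analysis was possible because the series has 1 group. Depth is unknown, and intervals cover counting error only.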
